A study of Mus musculus with 6 samples.

Results

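Mouse olfactory receptor genes stand in long arrays, and the arrays on chromosomes 2 and 9 were examined here as 2 stretches of the mm9 genome, chr2:85000000-90000000 and chr9:37700000-40000000. The members were 1 kb tiles of these stretches with at least 3 CpGs and at least 10 sequenced cytosine calls in each of 6 samples. There were 196 such tiles of 330110 in the genome, 119 on chromosome 2 and 77 on chromosome 9. The methylation level of a tile is the share of its calls read as C, in percent, after bisulfite treatment, which leaves methylated cytosines as C and turns unmethylated ones into T.

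Olfactory receptors are G protein-coupled odorant receptors of olfactory sensory neurons, and each neuron expresses essentially one allele of one receptor gene. Most of the genes are silent outside these neurons, though some are transcribed in the testis, and the arrays are known as AT-rich, late-replicating heterochromatin with few CpGs. Male germ cells lose most DNA methylation in the embryo and regain it before and around birth. TEX15 is a germ cell protein known for its part in the methylation of retrotransposons in this period, downstream of piRNAs.

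The samples were whole-genome bisulfite libraries of germ cells sorted by an Oct4-GFP reporter from single male pups at postnatal day 2.5, on a mixed strain background. The 3 genotypes were Tex15WT (Tex15+/+, pups 8 and 9), Tex15HT (Tex15+/-, pups 7 and 18) and Tex15KO (Tex15-/-, pups 3 and 16), all from matings of Tex15+/- parents, so that n = 2 pups per genotype. Tex15WT and Tex15HT together are called the 4 controls. The Tex15 deletion and the identity of the sorted cells were not checked, since methylation calls hold no expression.

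The clusters held 11528 CpGs with deposited counts, 1.53 per kb on chromosome 2 and 1.68 per kb on chromosome 9, against 3.54 per kb on the autosomes. CpGs without deposited counts are missing from these densities and from the CpG number of a tile. How far this lowers the values of the clusters was not tested. Depth was low, with 2.23 to 3.79 calls per cytosine. Tex15KO 3 stood apart: 72.7% of its cluster cytosines had no call, against 1.82 to 10.4% in the other 5 samples. Where it had 6 to 10 calls they were all alike at 95.7% of cytosines, against 44.9 to 51.4% elsewhere. The main level comparisons and the counts of 1 kb tiles are also given without it. Comparisons within classes of CpG number, shares of CpGs with both C and T calls, and results of 5 kb tiles are not. Of the 1545 cluster tiles with 3 or more CpGs, 12.7% passed the minimum of calls, against 27.9% in the flanks, the stretches of equal length on both sides of each cluster. The tested tiles held 10.9% of the CpGs of the clusters.

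Promoter sequences of olfactory receptor genes also held few CpGs. Among 948 olfactory receptor promoter windows of RefSeq (mouse build GRCm38.p6, 300 bases around the gene start), the median was 1 CpG and 33.3% held none, against a median of 8 and 4.60% among the other windows. A window of build GRCm38.p6 could be placed on mm9 only where the distances between its CpGs matched a single place of the data, which needed 4 or more CpGs. This matched 1 olfactory receptor gene, Olfr958, and 1 neighbour at the edge of the chromosome 9 array, Zfp202, a zinc finger gene that lies between Olfr986 and Scn3b in the RefSeq order. The 250 bases upstream of both gene starts are shown because they carry opposite methylation, with each CpG in capitals:

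Olfr958: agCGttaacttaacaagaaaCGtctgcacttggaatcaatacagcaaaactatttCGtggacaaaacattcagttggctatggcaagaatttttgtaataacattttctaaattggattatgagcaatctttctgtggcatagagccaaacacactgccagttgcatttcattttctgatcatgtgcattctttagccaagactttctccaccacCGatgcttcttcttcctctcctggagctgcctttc

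Zfp202: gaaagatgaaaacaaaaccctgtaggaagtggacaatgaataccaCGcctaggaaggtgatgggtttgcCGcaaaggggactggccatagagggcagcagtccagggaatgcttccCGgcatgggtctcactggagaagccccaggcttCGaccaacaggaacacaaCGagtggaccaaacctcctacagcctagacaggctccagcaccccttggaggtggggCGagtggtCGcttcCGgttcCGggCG

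The Olfr958 window has 4 CpGs, at 39358488 to 39358701 of chromosome 9 in mm9 on the minus strand, and was methylated. Its levels were 83.3% of 6 calls and 100% of 9 calls in the Tex15WT pups, 100% of 13 and 100% of 10 calls in the Tex15HT pups, and 95.5% of 22 calls in Tex15KO 16 (95% Wilson interval 78.2 to 99.2%). Tex15KO 3 had 0 calls there. Of the Zfp202 window, 15 of 17 CpGs were matched, from 39999696 to 39999943 on the plus strand, and 4 of 605 calls were C over all samples. Every sample with calls at Olfr958 was above 80%, and every sample at Zfp202 was at or below 2%.

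The first question was how the clusters compared with their surroundings. Cluster tiles of 3 to 9 CpGs were less methylated than tiles of the same CpG number in the flanks. Mean levels in the clusters were 71.8 and 69.8% in the Tex15WT pups, 70.8 and 71.3% in the Tex15HT pups, then 68.1 and 69.8% in the Tex15KO pups (177 tiles). Flank tiles averaged 84.9% over the samples (1578 tiles), a difference of -14.6 ± 1.73 points (SD, n = 6), lower in 6 of 6 samples. The exact sign-flip permutation test over samples, two-sided, gave p 0.03125, the smallest it can give, and 0.0352 after Benjamini-Hochberg adjustment over 9 comparisons of this kind. This test measures agreement among pups, not how far stretches of the genome differ from each other. The tests on single CpGs further below are outside these 9 and unadjusted. Against the other autosomal tiles of 3 to 9 CpGs (230535 tiles, 85.5%) the difference was -15.3 ± 1.75 points (SD, n = 6, same exact test, p 0.03125).

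**Figure D1:**
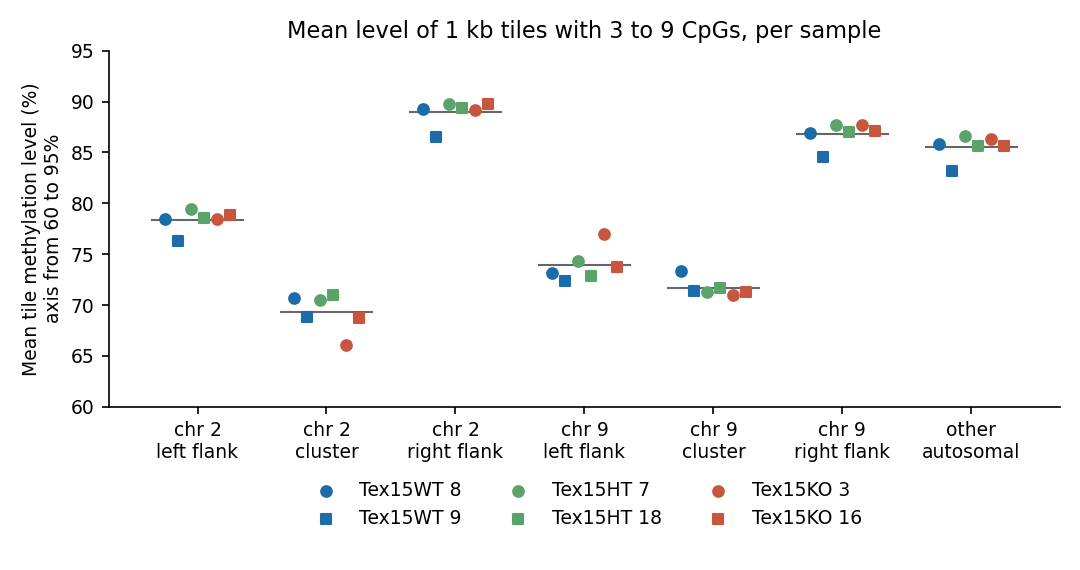
Mean methylation level of 1 kb tiles with 3 to 9 CpGs (y axis, percent, from 60 to 95%) in each cluster, each flank and the other autosomal tiles. Points are samples, circles and squares the pups of a genotype, and grey lines the mean of the 6 samples. The chromosome 2 cluster lay below both of its flanks in every sample, and the chromosome 9 cluster lay below its right flank.

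The neighbourhoods were not alike. On chromosome 2 the cluster lay -9.04 ± 1.92 points from its left flank and -19.7 ± 2.02 points from its right flank (SD, n = 6, exact test p 0.03125 each). On chromosome 9 it lay -15.2 ± 1.47 points from the right flank, but only -2.24 ± 2.17 points from the left flank, lower in 5 of 6 samples (exact test p 0.0625). That left flank itself averaged 73.9%. The chromosome 2 cluster averaged 69.3% and the chromosome 9 cluster 71.7%, a difference of -2.38 ± 1.53 points (p 0.03125), which was 2.18 points in the other direction when the tiles were chosen and compared without Tex15KO 3.

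**Figure D2:**
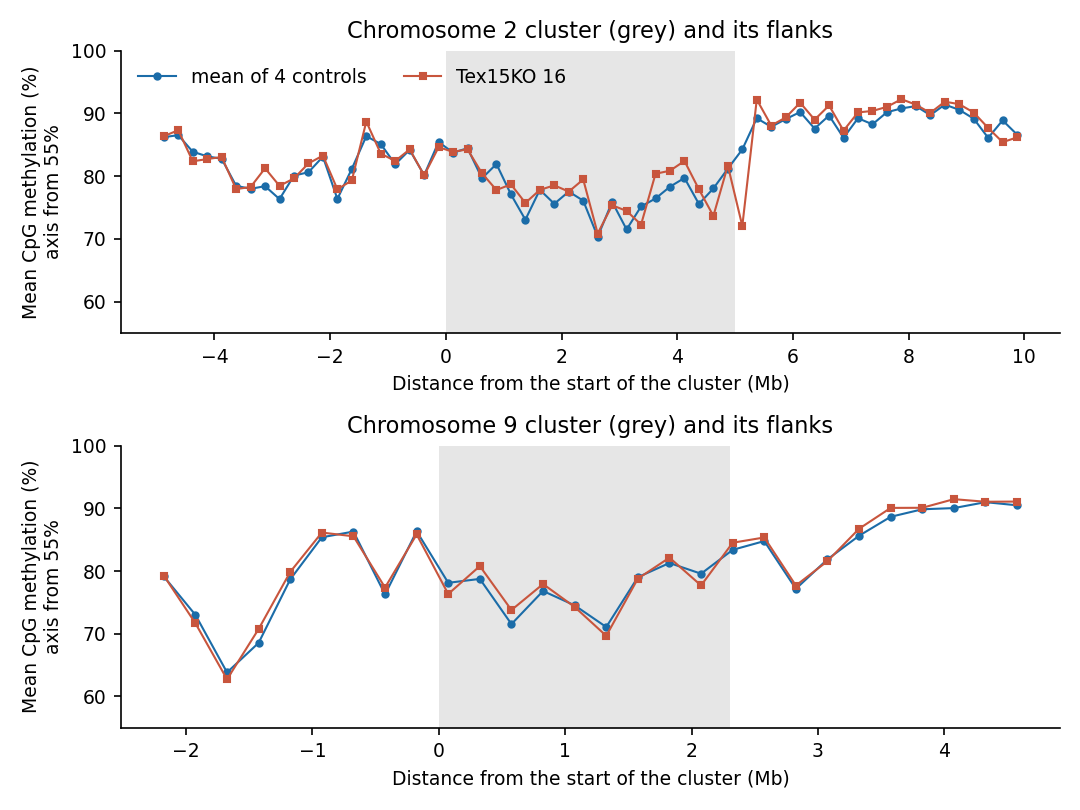
Mean methylation level of CpGs (y axis, percent, from 55%) in bins of 250 kb against the distance from the start of each cluster in Mb. Blue circles are the mean of the 4 controls, red squares Tex15KO 16, and the grey band is the cluster. Control levels inside the chromosome 2 band ran from 70.4 to 84.5%, and the lowest bin of the chromosome 9 panel, at 63.8%, lies in the left flank.

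Along the clusters the lower level was spread out and did not sit in 1 stretch. Bins of 250 kb were averaged over CpGs with fewer than 10 in their 1 kb. This left out 3.52% of the CpGs of the clusters and 24.1% of those in the flanks. The 20 bins on chromosome 2 had control levels of 70.4 to 84.5% with a median of 77.3%, and the lowest was the bin from 87500001. On chromosome 9 the 8 bins ran from 71.1 to 81.3%, with a median of 77.8%. The 40 flank bins of chromosome 2 had a median of 86.2% and the 18 of chromosome 9 a median of 85.1%, leaving out 2 bins that cross an edge of that cluster, and flank bins reached down to 76.3 and 63.8%. These lowest flank bins held 1.61 and 1.64 CpGs per kb, counting the CpGs kept. Cluster bins held 1.21 to 2.25 on chromosome 2 and 1.24 to 1.82 on chromosome 9. Another flank bin of such density, from chr2:94750001 (1.72 per kb), had 86.6% in the controls. Whether the level of a bin goes with its CpG density was not tested. Tex15KO 16 was below the controls in 7 of the 20 and 4 of the 8 cluster bins.

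Between tiles of 3 to 6 and of 7 to 9 CpGs, the difference from other sequence was larger in the second, in each of the 6 samples. Cluster tiles of 3 to 6 CpGs averaged 74.7% (127 tiles) and lay -12.4 ± 0.970 points from other autosomal tiles of that CpG number. Tiles of 7 to 9 CpGs averaged 59.0% (50 tiles) against 84.0%, a difference of -24.9 ± 4.24 points (SD, n = 6, exact test p 0.03125 each). Single CpGs alone or paired in their 1 kb were the most methylated of the clusters, at 82.5%, and lay -4.0 ± 1.08 points from the flanks (SD, n = 6, exact test p 0.03125). They made up 43.6% of the cluster CpGs and 12.9% of those in the flanks. CpGs with 10 or more in their 1 kb lay -8.28 ± 5.85 points from the flanks (SD, n = 6), between -17.4 points in Tex15KO 3 and -1.97 in Tex15WT 8, against -12.1 points at CpGs with 3 to 9 in their 1 kb. Averaged over every covered CpG, whatever its spacing, the clusters were not lower: 75.8% against 74.9% in the flanks, higher by 0.941 ± 0.602 points in 6 of 6 samples (exact test p 0.03125).

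The lower mean came with many tiles of intermediate level. Over the 4 controls, 44.1% of the cluster tiles of 3 to 9 CpGs had a level from 20 to 80%, against 15.1% in the flanks. A level of 80% or more was held by 49.7% of the cluster tiles and 82.2% of the flank tiles, and the medians were 79.9 and 90.9%. Single CpGs showed the same, with those of 10 or more in their 1 kb left out. At CpGs with 6 to 10 calls, the share with both C and T calls in the clusters was 53.4 and 59.2% in the Tex15WT pups, 52.6 and 56.7% in the Tex15HT pups, and 4.64 and 52.3% in Tex15KO. In the flanks these shares were 36.9, 47.6, 35.5, 43.3, 3.79 and 42.6% in the same order of samples. The clusters were higher in 6 of 6 samples, by 11.5 ± 5.96 points (SD, exact test p 0.03125).

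**Figure D3:**
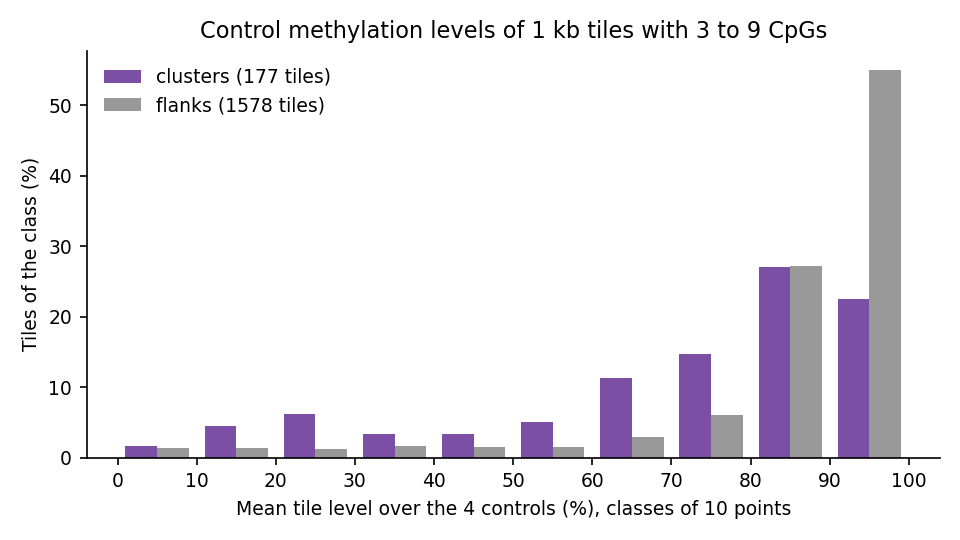
Share of 1 kb tiles with 3 to 9 CpGs (y axis, percent of the tiles of a part) by their mean level over the 4 controls (x axis, classes of 10 points), clusters in purple and flanks in grey. In the top class stand 55% of the flank tiles and 22.6% of the cluster tiles.

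The order of tiles from low to high was shared by the pups. Across the 196 tiles, levels of any 2 controls correlated at Pearson r 0.83 to 0.87, of Tex15KO 16 with a control at 0.77 to 0.82, of Tex15KO 3 with a control at 0.68 to 0.74, and of both Tex15KO samples at 0.78. These values are descriptions across tiles, which share their library and depth.

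The lowest 5 tiles by the mean of the controls were chr9:38792001-38793000 (0% in each control on 10 to 15 calls, which allows up to 30% at the shallowest), chr2:85038001-85039000 (0.490%, 15 CpGs), chr2:87366001-87367000 (1.15%, 31 CpGs), chr9:39999001-40000000 (1.99%, 30 CpGs) and chr9:38589001-38590000 (9.55%, 7 CpGs). The fourth holds the Zfp202 window printed above. In the first 4 of these every control lay at or below 4.72%. In the last, the Tex15WT pups had 0 and 8.70% and the Tex15HT pups 22.9% (8 of 35 calls) and 6.67%. The Tex15KO samples lay between 0 and 6.67% in all 5. The tiles at chr2:87366001 and chr9:39999001 were also among the 3 with most calls, which is where CpGs are dense.

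The second question was whether the loss of Tex15 changed the clusters. The mean level of the 196 tiles was 68.2 and 66.1% in the Tex15WT pups, 66.9 and 66.8% in the Tex15HT pups, and 63.3 and 64.8% in Tex15KO. Both Tex15KO samples were below all 4 controls. Tex15KO differed by -3.12 points from Tex15WT and by -2.82 points from Tex15HT (two-sided exact permutation test, p 0.333 each), and by -2.97 points from the 4 controls (p 0.0667), all the smallest p these tests can give. Tex15HT and Tex15WT differed by -0.295 points (exact p 1). With 5 kb tiles, of which 729 passed and which hold 7478 CpGs, the sign turned: 77.8% in Tex15KO and 76.8% in the controls. Over all covered CpGs the values were 75.4 and 76.0%. By cluster, the 119 tiles of 1 kb on chromosome 2 had 65.1 to 66.8% in the controls and 60.8 and 62.7% in Tex15KO. In the 77 on chromosome 9 the groups overlapped: 67.5 to 70.5% in the controls, 67.1% in Tex15KO 3 and 67.9% in Tex15KO 16.

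In flank tiles of 3 to 9 CpGs, Tex15KO lay 0.836 points above the controls. The difference between clusters and flanks was -16.5 points in Tex15KO and -13.7 points in the controls (exact permutation test of this change, p 0.0667, the smallest it can give). It was -1.95 points apart without Tex15KO 3 and 0.151 points in the other direction with 5 kb tiles. Leaving out the 6 tiles described below, the cluster level in Tex15KO was 65.5% against 66.9% in the controls. The groups then overlapped, since Tex15KO 16 had 66.1% and Tex15WT 9 had 66.0%.

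The difference was wider in tiles with 10 or more CpGs than in those of 3 to 9 CpGs, where the controls averaged 70.9% and Tex15KO 68.9%. In the 127 tiles of 3 to 6 CpGs the Tex15KO pups, at 74.2 and 74.8%, lay within the control range of 73.0 to 76.1%. In the 50 tiles of 7 to 9 CpGs the controls averaged 61.2% and Tex15KO 54.7%. The 19 tiles of 10 or more CpGs averaged 35.1 and 30.9% in the Tex15WT pups, 30.3 and 25.4% in the Tex15HT pups, and 19.0 and 18.1% in Tex15KO. The groups did not overlap, at -11.9 points between Tex15KO and the controls (exact permutation p 0.0667, a class looked at after its values were seen). Without the 1 tile of them that is described below it was -9.26 points. Both Tex15KO samples were below all controls in 5 of the 19 (26.3%, where 5.53% of all tiles of this class were) and above in 0 (where 8.26% were). In the flanks the 623 tiles of this class had 51.9% in both groups, but the left flank of chromosome 2 (114 tiles) had 39.2, 39.5, 37.5 and 39.2% in the controls and 34.6 and 34.3% in Tex15KO, and 4 of its tiles were over 30 points lower. Single tiles were uneven between the Tex15KO pups: chr2:88413001-88414000 (11 CpGs) had 31.3, 34.5, 43.3 and 41.2% in the controls, 0% in Tex15KO 3 and 17.6% in Tex15KO 16, while chr2:87217001-87218000 (11 CpGs) had 76.9 to 94.4% in the controls, 73.9% in Tex15KO 3 and 22% in Tex15KO 16.

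**Figure D4:**
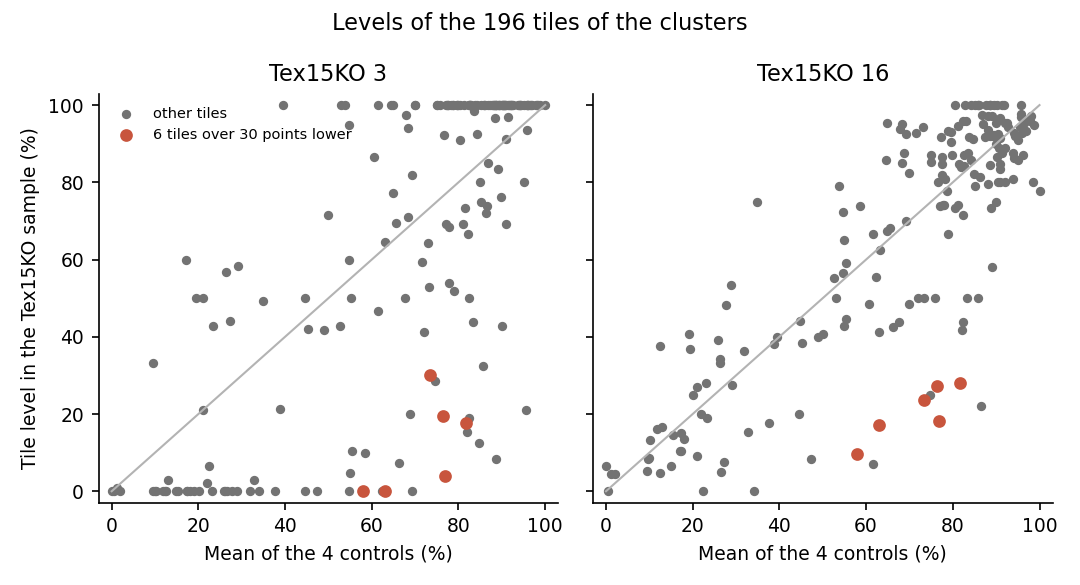
Level of each of the 196 tiles in Tex15KO 3 (left) and Tex15KO 16 (right) against the mean of the 4 controls, in percent, with the line of equal levels. Red points are the 6 tiles with Tex15KO 3 and Tex15KO 16 each more than 30 points under every control. Many tiles of Tex15KO 3 stand at exactly 0 or 100%.

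No single 1 kb tile of the clusters passed the test across the genome. The edgeR quasi-likelihood test with Benjamini-Hochberg adjustment over all tiles called 0 of 196 in Tex15KO against Tex15WT, with 9 at an unadjusted p under 0.05 (background 0.00969% of all tiles called and 2.71% unadjusted). Against Tex15HT it called 0, with 10 unadjusted (0.00576 and 2.21% of all tiles). Between Tex15HT and Tex15WT it called 0, with 0 unadjusted (0.00121 and 0.537%). Against the 4 controls it called 0 (0.0385% of all tiles), with 11 lower and 3 higher unadjusted, where 1.73 and 1.4% of all tiles were lower and higher. Limma on log2 ratios also called 0 in each, where its calls made up 0.0966%, 0.0627%, 0% and 0.277% of all tiles, with 37, 32, 3 and 42 cluster tiles at an unadjusted p under 0.05, where 8.51, 6.33, 1.57 and 9.57% of all tiles were. Without Tex15KO 16, edgeR called 12, 12 and 21 cluster tiles in the 3 comparisons with Tex15KO, on the single pup Tex15KO 3 (4.78, 4.78 and 6.7% of all tiles were then called).

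A count with no model stood beside this. Both Tex15KO samples were below all 4 controls in 28 tiles (14.3%, where 4.32% of all tiles were) and above them in 25 tiles (12.8%, where 8.24% were). By over 30 points they were below in 6 tiles (3.06%, where 0.456% of all tiles were, and 0.409% of the flank tiles) and above in 0 (where 0.0194% were). The clusters have more tiles of intermediate level. Among tiles with a control level of 20 to 80%, the share over 30 points lower was 5.81% in the clusters (5 of 86) and 1.36% in all tiles. The tile just inside the margin, chr2:87702001, had a gap of 31.6 points, and the tile just outside, chr2:87218001, a gap of 26 points. The 6 tiles stood at 4 places, since both pairs of neighbours adjoined, and they are given in order.

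At chr2:85122001-85123000 (10 CpGs) the levels were 92.1 and 95% in the Tex15WT pups, 69.2 and 70.6% in Tex15HT, 17.6% in Tex15KO 3 and 28% in Tex15KO 16. The lowest control rests on 26 calls (95% Wilson interval 50.01 to 83.5%) and the highest Tex15KO sample on 50 calls (17.5 to 41.7%). The 2 genotypes of the controls also stood apart here, with Tex15HT below Tex15WT. EdgeR gave an adjusted p of 0.697 and limma 0.0774 for Tex15KO against the controls. Low levels ran on around it: CpGs within 5 kb on both sides stood at 18.3% in Tex15KO 3 and 48.3% in Tex15KO 16, against 62.2 to 78.8% in the controls. Tex15KO 3 had 153 calls in the tile, more than at the other places.

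At chr2:87702001-87703000 (5 CpGs) the levels were 83.3 and 58.8% in the Tex15WT pups, 94.7 and 68.4% in the Tex15HT pups, and 19.6 and 27.3% in Tex15KO. All 5 CpGs were lower in Tex15KO 16 than in the pooled controls. The tile before it, chr2:87701001-87702000 (4 CpGs), was also low, at 43.9 and 50% in Tex15KO against 69.2 to 100% in the controls. Over all CpGs within 5 kb on both sides Tex15KO 16 stood at 81.7%, within the control range of 70.2 to 90%, and Tex15KO 3 at 46.3%.

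At chr2:89515001-89517000, 2 adjoining tiles were lower. The first (8 CpGs) had 61.5 and 70.6% in the Tex15WT pups, 100 and 75% in the Tex15HT pups, and 4.0 and 18.2% in Tex15KO. The second (6 CpGs) had 60.7 and 61.9%, 74.2 and 55.3%, and 0 and 17.2% in the same order. The 0 of 44 calls in Tex15KO 3 would allow up to 6.82% were the calls independent, but those of this sample were mostly alike at a cytosine. In Tex15KO 16, 12 of the 14 CpGs were below the pooled controls. Tex15KO 3 had calls at only 4 of the 14, all below. This place had the lowest adjusted p by limma, 0.0612 for the first tile, and was not called.

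At chr9:39508001-39510000, 2 adjoining tiles were lower too. The first (8 CpGs) had 68.4 and 81.8% in the Tex15WT pups, 80.8 and 62.5% in the Tex15HT pups, and 30 and 23.7% in Tex15KO. The second (7 CpGs) had 66.7 and 41.7%, 64.7 and 58.8%, and 0 and 9.52%, with only 10 calls in Tex15KO 3. Over both tiles Tex15KO 3 had calls at only 3 of the 15 CpGs, 2 of them below the pooled controls. In Tex15KO 16 all 15 had calls and 12 were below. Low levels ended within this place: CpGs within 5 kb on both sides stood at 100 and 94.7% in Tex15KO, against 70 to 96.2% in the controls.

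**Figure D5:**
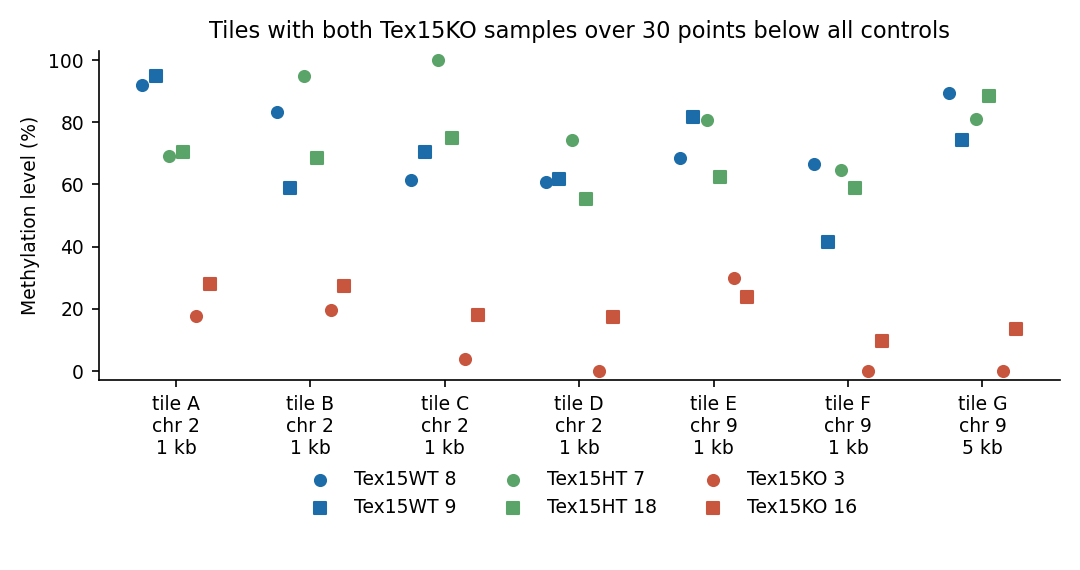
Methylation level per sample (y axis, percent) in the 6 tiles of 1 kb with both Tex15KO pups more than 30 points under every control (A to F, in chromosome order) and in 1 tile of 5 kb on chromosome 9 (G). Circles and squares are the pups of a genotype. Red points stay at or below 30% in all 7 tiles.

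Tiles of 5 kb reach CpGs too sparse or with too few calls for 1 kb tiles, and here 1 stretch was called. At chr9:38770001-38775000 (14 CpGs) the levels were 89.3 and 74.3% in the Tex15WT pups, 81.1 and 88.4% in Tex15HT, 0% in Tex15KO 3 and 13.5% in Tex15KO 16. The 0 of 49 calls would allow up to 6.12% were the calls independent, but those of Tex15KO 3 were mostly alike at a cytosine. The interval of Tex15KO 16 was 6.68 to 25.3% on 52 calls (95% Wilson). EdgeR called it lower in Tex15KO than in the controls (adjusted p 0.00994 over 366287 tiles), the only 1 of the 729 cluster tiles called, where 0.0663% of all tiles were. Its CpGs lay in the last 3 kb, which held 6, 4 and 4 CpGs and each missed the minimum of 10 calls in at least 1 sample. In the first of these, chr9:38772001, the C calls were 11 of 11, 10 of 13, 21 of 24 and 23 of 23 in the controls, 0 of 4 in Tex15KO 3 and 0 of 35 in Tex15KO 16. In the last, chr9:38774001, they were 7 of 10, 9 of 13, 6 of 9 and 9 of 9 in the controls and 0 of 12 in Tex15KO 3, but 6 of 10 in Tex15KO 16.

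By over 30 points, 6 of the 729 tiles of 5 kb were lower in both Tex15KO samples, where 0.288% of all 5 kb tiles were. One, chr2:85120001-85125000, contained a place described above. Apart from the called one, the others were chr2:85775001-85780000 (76.5 to 88.6% in the controls, 0 and 20.9% in Tex15KO), chr2:87215001-87220000 (78.4 to 90.9%, 28.4 and 25.4%), chr2:88350001-88355000 (65.5 to 83.9%, 30 and 26.9%) and chr2:85310001-85315000 (67.9 to 84.9%, 37.0 and 35.7%). That the groups do not overlap in these tiles follows from how they were chosen. In the tiles not called, edgeR's adjusted p was 0.113 to 0.941.

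Differences in the other direction were smaller. The 3 largest were at chr2:88895001-88896000 (38.5 and 36.4% in the Tex15WT pups, 66.7 and 73.7% in Tex15HT, 100 and 78.9% in Tex15KO), chr2:87814001-87815000 (78.6, 38.9, 77.8 and 64% in the controls, 100 and 95.5% in Tex15KO) and chr2:86421001-86422000 (63.6, 80, 54.5 and 60% in the controls, 100 and 85.7% in Tex15KO). None passed the test by edgeR or limma, and at the first the Tex15HT pups stood between the other genotypes.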

How the data were processed

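The authors deposited raw counts for 6 separate pups, per CpG cytosine and strand (coverage, C calls and T calls, per the file headers). The submitters' processing notes name the build mm9 and the tools BSMAP, Bismark and methylKit. Their roles, removal of duplicates and the conversion rate were not given in the sources used here. Coverage equalled C plus T calls at every cytosine (0 exceptions among 10025464).

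Strands were summed, and 1 kb tiles kept with 3 or more CpGs and 10 or more calls in each sample. Tiles were tested with edgeR 4.0.16 (glmQLFit, glmQLFTest, R 4.3.3) on methylated and unmethylated counts, all samples in 1 fit with an intercept each, Benjamini-Hochberg adjustment over 330110 tiles, and calls at an adjusted p under 0.05. The spread was shared over tiles, so a tile's p does not measure how far pups differed there. The second tool was limma 3.58.1, on log2 of methylated over unmethylated calls, each plus a pseudocount of 1. The edgeR script was tested on simulated calls without variation between pups, in tiles of the whole genome. It called 37 of 100 tiles lowered by 30 points in Tex15KO and 99 of 100 lowered by 60 points, with 3 false calls. PCR reads carry no molecular identifiers, so the 95% intervals and limits of a count of 0 (3 calls) cover counting error only. They take calls as independent and are too narrow where calls repeat each other.

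Named tiles were the edgeR calls, the 5 lowest in the controls, the 5 largest decreases and 3 largest increases with both Tex15KO samples outside the control range, and the 3 with most calls. The sixth tile over 30 points lower, 5 kb tiles, single tiles of 10 or more CpGs and promoter matches were chosen after their values were seen. The members and lists were chosen with earlier results of these data known. Promoters were placed by CpG spacing, with 4 or more CpGs, at least 80% of them matched, none besides, and 1 place in the table.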

Additional observations from a re-analysis of the deposited data

How the results depend on the processing

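No paired analysis was possible because the pup numbers are not shared between genotypes. The clusters lay below their flanks and below other autosomal tiles in all tile settings run but 1: with 30 or more calls in each sample only 5 cluster tiles were left and the differences were 39.4 and 19.99 points. Averaged over every covered CpG with no tiles, they lay 0.941 points above the flanks and -0.369 points from other autosomal CpGs (lower in 4 of 6 samples). The level tests cannot pass 0.05 with these group sizes, and neither can 5 samples under sign flips (smallest p 0.0625), so their p-values say nothing of stability. Chosen and compared without Tex15KO 3, a setting added after seeing the data, the differences were -15.9 points from the flanks, -16.3 from other autosomal tiles, and 2.18 between chromosome 2 and chromosome 9. That last difference was -2.46 with 5 or more CpGs (exact p 0.0625), -0.0911 with 5 kb tiles (p 0.906) and -3.55 with 3 to 5 CpGs (p 0.0625), and could not be computed with 30 calls. With 5 kb tiles the level differences turned to 1.34 (Tex15KO and Tex15WT), 0.639 (Tex15KO and Tex15HT), 0.701 (Tex15HT and Tex15WT) and 0.990 points (Tex15KO and controls), and the change between clusters and flanks to 0.151 (9.40 with 30 calls). Over all covered CpGs Tex15HT lay 0.921 points above Tex15WT. The causes were not tested.

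Leaving out each sample in turn gave -4.20 to -2.04 points for Tex15KO against Tex15WT, -3.55 to -2.10 against Tex15HT, -1.38 to 0.786 for Tex15HT against Tex15WT (the positive value without Tex15WT 8), -3.69 to -2.25 against the controls, -15.0 to -14.1 from the flanks, -15.7 to -14.7 from autosomal tiles, -2.71 to -1.87 between the clusters and -3.76 to -1.95 for the change between clusters and flanks. The count over 30 points lower was 7 to 20, with 20 without Tex15KO 16, 16 without Tex15KO 3 in tiles chosen without it, and 0 of 5 tiles with 30 calls. EdgeR calls were 0 to 12 against Tex15WT, 0 to 12 against Tex15HT, 0 to 0 for Tex15HT against Tex15WT and 0 to 21 against the controls, all but 0 without Tex15KO 16, and 1 against the controls with 5 kb tiles. The unmethylated tiles chr2:87366001 and chr9:39999001 changed sign, between -0.306 and 3.43 and between -1.99 and 2.36 points (-0.249 without Tex15WT 9, -0.298 without Tex15HT 7). Depth limits all tiles: the median was 19.5 calls per sample and tile.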

Other observations

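Copies of repeats can be sought by CpG spacing, as runs of 6 successive CpGs whose distances recur at 10 or more places of the table. The clusters held few of them: 6 of 11528 CpGs (0.0520%), against 0.586% in the flanks and 0.552% in the whole table. These 6 CpGs form 1 place, chr2:88081541-88081599, whose spacing was found at 21 places. Its levels were 20 and 83.3% in Tex15WT (10 and 12 calls), 72.7 and 85.7% in Tex15HT (11 and 7 calls) and 10.4% in Tex15KO 16 (67 calls, 95% Wilson interval 5.15 to 20.03%). Tex15KO 3 had 0 calls there, so no comparison of the genotypes was made.

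The 250 kb next to the chromosome 2 cluster, chr2:90000001-90250000, had 0.632 CpGs per kb, counting only the CpGs kept for the 250 kb bins. CpGs in dense stretches were left out of these bins, so the value is not comparable with the densities given for the clusters and the autosomes. The levels of this bin, averaged over the 158 CpGs kept, were 82.7 and 88.2% in Tex15WT, 80.8 and 85.3% in Tex15HT, 80.8% in Tex15KO 3 and 72.1% in Tex15KO 16. This bin was singled out after its value was seen.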
